A study of Homo sapiens with 6 samples.

Results

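The genes described here belong to the signaling route that runs through the shared receptor chain gp130 to the transcription factor STAT3, measured in HepG2, a human liver cancer cell line, after knockdown of PAIP1. They are 10 genes, IL11, CTF1, LIF, IL6R, IL6ST, LIFR, OSMR, JAK1, STAT3 and SOCS3, taken by symbol out of 30987 genes in the count table. PAIP1 binds the poly(A) binding protein and acts in translation. All 6 libraries came from HepG2 cells carried through a siRNA transfection: 3 received a non-targeting control siRNA (Ctrl) and 3 received siRNA3 against PAIP1 (siPAIP1), and poly(A) RNA was sequenced 48 h later. The comparison asks which of these mRNAs differ in level when PAIP1 is reduced. It rests on 1 cell line and 1 siRNA, without a rescue or a second siRNA among the libraries.

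In this route a cytokine binds receptor chains that pair with gp130, the product of IL6ST, and the kinase JAK1 and its relatives phosphorylate STAT3, which enters the nucleus and acts on its target genes. SOCS3 is one such target, and its protein binds gp130 and JAK kinases and dampens the signal. In the liver the route is best known for switching on the acute-phase proteins after IL-6 arrives. The signal from the receptor to STAT3 is carried by protein modification, and the libraries measure mRNA only.

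The target of the siRNA was reduced in all 3 siPAIP1 libraries. PAIP1 stood at 26.83, 22.96 and 26.01 FPKM (fragments mapped to a gene, scaled to its exon length and to library depth) in Ctrl 1, 2 and 3 and at 8.29, 6.54 and 5.47 FPKM in siPAIP1 1, 2 and 3. The groups did not overlap, and the log2 fold change was -1.93 (SE 0.13, adjusted p = 0.00092, edgeR). The exact two-sided permutation test of the FPKM values gave p = 0.1, the smallest value that 3 libraries against 3 can give. The antisense strands of the siRNA against PAIP1 and of the control siRNA are shown because an siRNA can also act on other mRNAs through its seed, bases 2 to 8, which is in capitals.
siRNA3 antisense: uAUCAUCCaaguauggauctt
control siRNA antisense: aCGUGACAcguucggagaatt
The DNA word that pairs with the siRNA3 seed, GGATGAT, occurred once in the 3′UTR of LIF and once in that of IL6R, and not in the 3′UTRs of the other 8 genes. Among tested genes with an annotated 3′UTR, 8.48% held the word. Neither LIF nor IL6R passed the test described next with all libraries. Without siPAIP1 3, IL6R passed as lower (log2 fold change -0.34, adjusted p = 0.0039, edgeR) and LIF did not pass (-0.23, adjusted p = 0.077, edgeR). A word match is no evidence of binding, and a seed effect was not tested. No search for the control siRNA seed is given.

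Total counts ran from 29313211 to 34659866 per library. The third siPAIP1 library stood apart, with 357 genes more than 2-fold above the mean of the other libraries of its group, against 0 to 7 in the other 5. Only genes above a set mean level were counted for this. All 8 hepatocyte markers (such as ALB and APOA1) were above 1 FPKM in every library, and their summed level was 3054 to 3249 FPKM in Ctrl and 1661 to 2630 FPKM in siPAIP1. Of the 4 fibroblast or stellate and 3 endothelial markers the summed level never exceeded 0.30 FPKM. Of 6 leukocyte markers, 5 had counts and 1, LYZ, carried the sum, which was 261 to 288 FPKM in Ctrl and 183 to 271 FPKM in siPAIP1, while PTPRC, which marks leukocytes as a class, had 1 count in Ctrl 1 and 0 in the other 5 libraries. The part of the lower hepatocyte markers in the results below was not tested, and in a bulk culture fewer cells of a type and less RNA per cell cannot be told apart.

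PAIP1 knockdown was accompanied by higher IL11, CTF1 and STAT3 mRNA and lower IL6ST and OSMR mRNA. With edgeR's quasi-likelihood test and Benjamini-Hochberg adjustment over 15528 genes, 3 of the 10 genes passed at an adjusted p under 0.05 as higher in siPAIP1 and 2 as lower, beside 5.68% of all tested genes passing as higher and 6.20% as lower. IL11 and CTF1 also changed by at least 2-fold and were thus differentially expressed genes (DEGs), a class that held 1.11% of tested genes in the higher direction and 1.10% in the lower. For 7 of the 10 genes the siPAIP1 and Ctrl libraries did not overlap, 3 with higher and 4 with lower siPAIP1 values, beside 36.6% of tested genes in either direction. The median log2 fold change over the 10 genes was -0.079, against 0.034 over all tested genes. Without the third siPAIP1 library, 3 genes passed as higher and 4 as lower, beside 1848 and 1941 of all tested genes, against 882 and 963 with it. Of the 10 genes, 1 passed as higher and 0 as lower without Ctrl 1 or without Ctrl 3. The counts were 3 and 0 without Ctrl 2 or siPAIP1 2, and 3 and 1 without siPAIP1 1. Over all tested genes fewer passed in each of these fits too. They were 206 higher and 307 lower without Ctrl 1, 281 and 434 without Ctrl 2, and 213 and 286 without Ctrl 3. Without siPAIP1 1 they were 601 and 666, and without siPAIP1 2 they were 317 and 366.

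**Figure D1:**
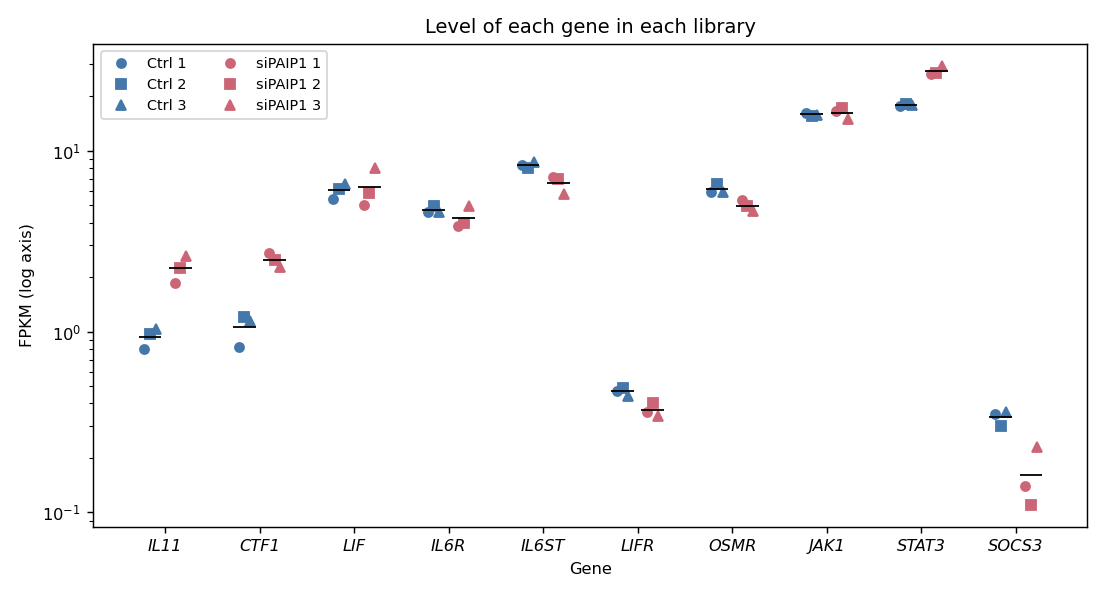
FPKM (log axis) of the 10 genes in each library, blue for Ctrl and red for siPAIP1, with replicates 1, 2 and 3 as circle, square and triangle and the group mean as a black line. IL11, CTF1 and STAT3 lie higher in all 3 siPAIP1 libraries, while IL6ST, LIFR, OSMR and SOCS3 lie lower.

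Expressed per length, the genes covered a wide range in control cells. STAT3 was the most abundant at 17.9 ± 0.31 FPKM (SD, n = 3), followed by JAK1 at 15.9 ± 0.29 and IL6ST at 8.33 ± 0.29 FPKM. OSMR (6.13 ± 0.34) and LIF (6.03 ± 0.56 FPKM) came next, and their ranges over the libraries overlapped. IL6R followed at 4.69 ± 0.21 FPKM. CTF1 (1.06 ± 0.21) and IL11 (0.93 ± 0.12 FPKM) overlapped each other, and LIFR (0.47 ± 0.025) and SOCS3 (0.34 ± 0.032 FPKM) were lowest. In siPAIP1 the first 3 and the last 4 places were held by the same genes, but IL6ST, LIF, OSMR and IL6R formed a run in which each overlapped its neighbour, from 6.62 ± 0.76 to 4.27 ± 0.61 FPKM. The upper end of the scale thus belonged to the kinase, the transcription factor and the shared receptor chain, and the lower end to ligands, 1 receptor chain and the inhibitor.

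Of the ligands, IL11 and CTF1 rose and LIF did not pass. IL11 (ENSG00000095752.6, chr19:55364382-55370463, minus strand, GRCh38) encodes interleukin 11, which signals through its own alpha receptor and gp130. Its level was 0.80, 0.97 and 1.03 FPKM in the Ctrl libraries and 1.86, 2.24 and 2.63 FPKM in the siPAIP1 libraries. Every siPAIP1 library was above every Ctrl library, with 161 to 219 counts against 71 to 86. The log2 fold change was 1.24 (SE 0.19, 95% confidence interval 0.79 to 1.70, adjusted p = 0.0092, edgeR), or 2.37-fold. The call was lost when Ctrl 1 (adjusted p = 0.0553) or Ctrl 3 (adjusted p = 0.0503, both edgeR) was left out, with a log2 fold change of 1.14 and 1.31.

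CTF1 (ENSG00000150281.6, chr16:30896614-30903547, plus strand) encodes cardiotrophin 1, which binds the pair of LIFR and gp130. It was at 0.82, 1.21 and 1.15 FPKM in Ctrl and at 2.73, 2.48 and 2.27 FPKM in siPAIP1. The 2 groups were well apart, with 51 to 75 counts against 133 to 166. The log2 fold change was 1.21 (SE 0.18, interval 0.80 to 1.62, adjusted p = 0.0073, edgeR), or 2.31-fold, and CTF1 passed under all 16 alternative settings.

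LIF (ENSG00000128342.4, chr22:30240453-30246759, minus strand) encodes leukemia inhibitory factor, a further ligand of LIFR and gp130. It gave 5.42, 6.17 and 6.51 FPKM in Ctrl and 5.03, 5.84 and 8.0 FPKM in siPAIP1, so that the groups overlapped and the third siPAIP1 library was the highest of the 6. Its log2 fold change was 0.046 (SE 0.20, interval -0.42 to 0.51, adjusted p = 0.90, edgeR). Without the third siPAIP1 library the sign turned, at -0.23 with adjusted p = 0.077 (edgeR). The antisense transcripts LIF-AS1 and LIF-AS2 overlap this gene and had at most 60 counts, beside 728 to 1116 for LIF, and whether counting used strand is not given in the sources used here.

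The IL11 promoter is shown because IL11 is a DEG with an entry in the promoter table and its upstream 250 bases hold a single word of the AP-1 type, TGANTCA (its own reverse complement), in capitals, 96 bases before the RefSeq start. The stretch is chr19:55370464-55370713 on the minus strand (RefSeq, GRCh38.p14).
IL11 upstream: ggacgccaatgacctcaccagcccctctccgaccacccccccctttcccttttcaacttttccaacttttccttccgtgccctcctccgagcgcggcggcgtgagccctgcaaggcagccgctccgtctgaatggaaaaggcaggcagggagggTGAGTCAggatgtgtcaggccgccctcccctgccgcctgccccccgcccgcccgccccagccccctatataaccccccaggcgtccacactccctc
That word was searched after the values were seen, and 6.57% of all upstream stretches of this length in the promoter table hold it. Of the 13 windows listed for 8 of the 10 genes, only this one did. CTF1 and LIF had no entry in the promoter table.

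**Figure D2:**
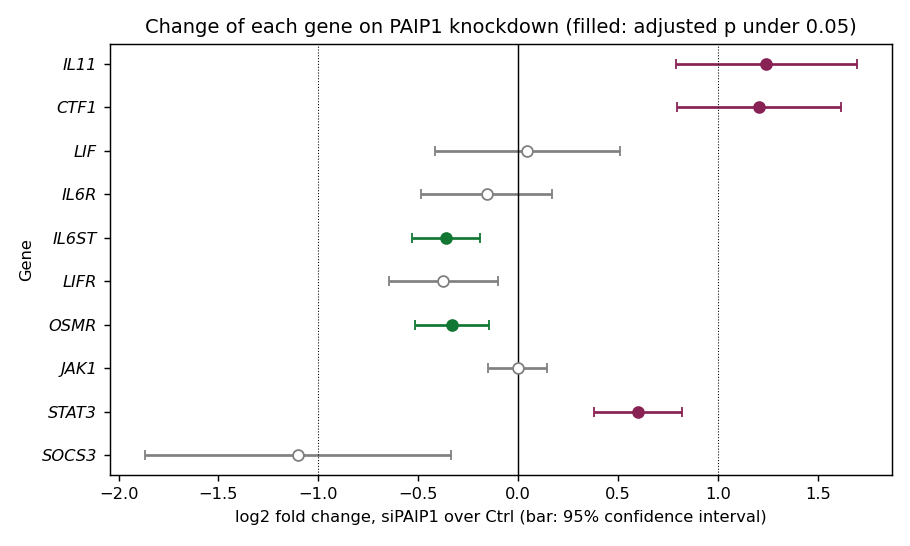
log2 fold change of siPAIP1 over Ctrl for the 10 genes with the 95% confidence interval as a bar, filled where the adjusted p was under 0.05, and dotted lines at a 2-fold change. IL11 and CTF1 lie beyond the upper dotted line, STAT3 at 0.60, and IL6ST and OSMR below 0.

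Among the receptor chains, IL6ST and OSMR were lower in siPAIP1, and LIFR and IL6R did not pass. IL6ST (ENSG00000134352.19, chr5:55935095-55995022, minus strand), which encodes the shared chain gp130, was at 8.33, 8.05 and 8.62 FPKM in Ctrl and at 7.16, 6.95 and 5.76 FPKM in siPAIP1. All siPAIP1 values were below all Ctrl values, and the third siPAIP1 library was the lowest. The log2 fold change was -0.36 (SE 0.073, interval -0.53 to -0.19, adjusted p = 0.0219, edgeR), which left 77.8% of the control level. Without any 1 of the 3 Ctrl libraries or siPAIP1 2 the adjusted p lay between 0.0593 and 0.0944 (edgeR), and without siPAIP1 3 it was 0.0022.

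OSMR (ENSG00000145623.12, chr5:38845858-38945596, plus strand) encodes the chain that joins gp130 in the oncostatin M receptor. It gave 5.93, 6.52 and 5.95 FPKM in Ctrl and 5.32, 4.95 and 4.66 FPKM in siPAIP1, without overlap. Its log2 fold change of -0.33 (SE 0.079, interval -0.51 to -0.15, adjusted p = 0.0383, edgeR) was close to that of IL6ST, at 79.6% of the control level. Leaving out any 1 library other than siPAIP1 3 ended the call, with adjusted p between 0.0679 and 0.128 (edgeR). The gene overlaps RICTOR on the opposite strand, which had 322 to 456 counts beside 1007 to 1496 for OSMR.

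LIFR (ENSG00000113594.9, chr5:38474668-38608354, minus strand) pairs with gp130 for LIF and cardiotrophin 1. Its level was low, at 0.47, 0.49 and 0.44 FPKM in Ctrl and 0.36, 0.40 and 0.34 FPKM in siPAIP1. The siPAIP1 values were all lower, but the log2 fold change of -0.37 (SE 0.12, interval -0.65 to -0.10) did not pass (adjusted p = 0.0826, edgeR). The antisense gene LIFR-AS1 had 9 to 23 counts, beside 123 to 190 for LIFR.

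IL6R (ENSG00000160712.12, chr1:154405193-154469450, plus strand) is the chain that binds interleukin 6 itself. Ctrl 1, 2 and 3 had 4.58, 4.94 and 4.56 FPKM, and siPAIP1 1, 2 and 3 had 3.85, 3.98 and 4.97 FPKM. The first and second siPAIP1 libraries were below all Ctrl libraries and the third was above them. With all 6 libraries the log2 fold change was -0.16 (SE 0.14, interval -0.48 to 0.17, adjusted p = 0.49, edgeR). Leaving out the third siPAIP1 library gave -0.34 with adjusted p = 0.0039 (edgeR), so that for IL6R this library decides the call.

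Downstream of the receptors, STAT3 rose and JAK1 did not pass. STAT3 (ENSG00000168610.14, chr17:42313324-42388540, minus strand) was at 17.62, 18.24 and 17.86 FPKM in Ctrl and at 26.49, 26.75 and 29.45 FPKM in siPAIP1. The Ctrl libraries were close together and all siPAIP1 libraries stood above them. With 3016 to 3438 counts against 4880 to 5223, the log2 fold change was 0.60 (SE 0.094, interval 0.38 to 0.82, adjusted p = 0.0094, edgeR), or 1.52-fold. As for IL11, the call was lost without Ctrl 1 (adjusted p = 0.0599) or Ctrl 3 (adjusted p = 0.063, edgeR) while the log2 fold change stayed at 0.59. Of the summed FPKM of the 7 STAT genes, STAT3 took 30.9% ± 0.66 in Ctrl and 36.3% ± 1.92 in siPAIP1 (SD, n = 3), given as a description without a test.

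JAK1 (ENSG00000162434.11, chr1:64833223-65067754, minus strand), the kinase bound to gp130, had 16.21, 15.63 and 15.85 FPKM in Ctrl and 16.52, 17.15 and 14.92 FPKM in siPAIP1. The groups overlapped on both sides. The log2 fold change was -0.0016 (SE 0.063, adjusted p = 0.99, edgeR), and its interval of -0.15 to 0.15 leaves out changes above that size. RAVER2 overlaps JAK1 on the opposite strand and had 373 to 569 counts, beside 2646 to 3194 for JAK1.

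SOCS3 (ENSG00000184557.4, chr17:78356778-78360077, minus strand), the inhibitor, was the least abundant of the 10 genes. It gave 0.35, 0.30 and 0.36 FPKM in Ctrl and 0.14, 0.11 and 0.23 FPKM in siPAIP1. These values rest on 36, 31 and 33 counts in Ctrl and on 14, 11 and 22 counts in siPAIP1. The siPAIP1 libraries were all below the Ctrl libraries, but the 95% Poisson interval of siPAIP1 3 (13.8 to 33.3 counts) overlapped those of all 3 Ctrl libraries (21.1 to 44 counts for Ctrl 2, the lowest), and that of siPAIP1 1 (7.65 to 23.5 counts) overlapped those of Ctrl 2 and Ctrl 3, all for counting error only. Its log2 fold change was -1.10 (SE 0.33, interval -1.87 to -0.34, adjusted p = 0.0715, edgeR) and so did not pass. Without the third siPAIP1 library it was -1.51 with adjusted p = 0.0033 (edgeR), and edgeR's exact test on all libraries gave adjusted p = 0.0283, while DESeq2 gave 0.106.

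Ratios within a library set the 2 members of a pair against each other without regard to depth. SOCS3 had 1.99, 1.64 and 2.02 FPKM per 100 FPKM of STAT3 in Ctrl and 0.53, 0.41 and 0.78 in siPAIP1. The means were 1.88 ± 0.21 and 0.57 ± 0.19 (SD, n = 3), a log2 change of -1.76, and the groups were far apart. The exact two-sided permutation test gave p = 0.1, the smallest it can give, or 0.3 after Benjamini-Hochberg adjustment over 3 ratios. This p was fixed in advance, because SOCS3 was lower and STAT3 higher in every siPAIP1 library. It adds nothing to those values, and SOCS3, which did not pass by itself, rests on 11 to 36 counts. LIFR had 7.61 ± 0.28 FPKM per 100 FPKM of OSMR in Ctrl and 7.38 ± 0.66 in siPAIP1 (exact permutation p = 0.6, adjusted 0.6). IL6R had 56.4 ± 4.41 FPKM per 100 FPKM of IL6ST in Ctrl and 65.8 ± 17.8 in siPAIP1 (exact permutation p = 0.6, adjusted 0.6), where siPAIP1 3 alone was at 86.3 and the other 2 libraries of its group were within the Ctrl range.

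**Figure D3:**
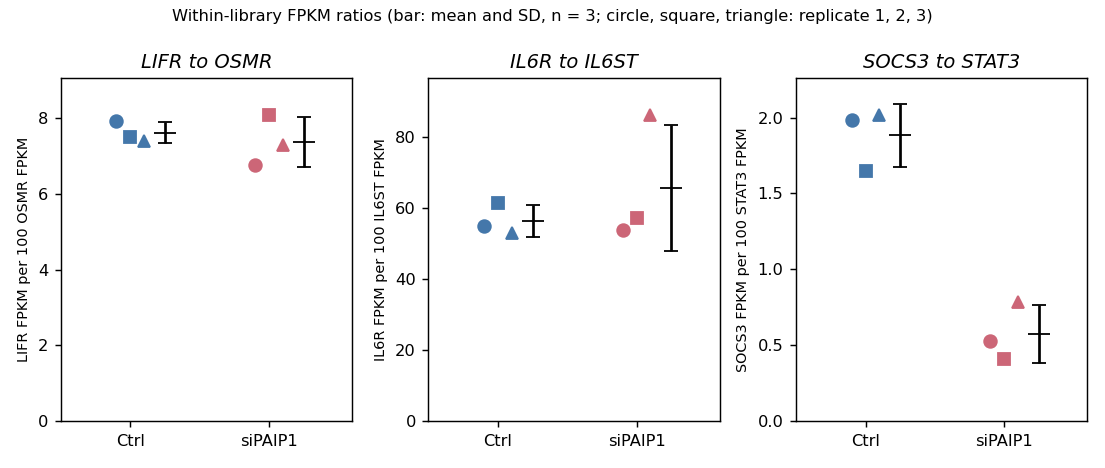
Within-library FPKM ratios of 3 gene pairs, each point 1 library (circle, square and triangle for replicates 1, 2 and 3) and bars the mean and SD of 3 libraries, with each axis starting at 0. SOCS3 per 100 STAT3 lies at 1.64 to 2.02 in Ctrl and 0.41 to 0.78 in siPAIP1, whereas the groups overlap for LIFR to OSMR and for IL6R to IL6ST.

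A further 71 genes of the route were counted in 7 lists, and of the 60 that could be tested 1 passed as higher and 11 as lower, with a median log2 fold change of -0.047, beside 5.68% of all tested genes passing as higher and 6.20% as lower and a median of 0.034. Without the third siPAIP1 library 3 passed as higher and 17 as lower, while over all genes those passing went from 882 to 1848 higher and from 963 to 1941 lower. Without any other single library 0 passed as higher and 3 to 6 as lower, beside 206 to 601 and 286 to 666 over all genes. Of 7 other cytokines and their subunits, 2 were tested and 1 passed, as lower. EBI3, a subunit of interleukin 27, fell from 1.38, 1.24 and 2.14 FPKM to 0.42, 0.80 and 0.50 FPKM (log2 fold change -1.49, SE 0.31, adjusted p = 0.0244, edgeR). EBI3 lost its call without Ctrl 1, 2 or 3 or siPAIP1 1 (adjusted p of 0.0554 to 0.0961, edgeR). CLCF1, a cytokine whose receptor includes LIFR and gp130 and the most abundant of the genes counted in that list, had 2.33, 1.94 and 2.41 FPKM in Ctrl and 2.64, 3.10 and 2.26 FPKM in siPAIP1. The groups overlapped, and it did not pass (log2 fold change 0.23, SE 0.14, adjusted p = 0.30, edgeR). IL6 itself had 1 count in Ctrl 2 and 0 in the other 5 libraries, and OSM had 0 to 4 counts, so neither was tested. Those ligands, named after their values were seen, were at or near a floor of 3 counts.

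Of 6 other receptors and receptor-shedding proteases, 4 were tested and 1 passed as lower, with a median of -0.034. ADAM10, a protease that releases membrane proteins including IL6R, went from 5.23, 5.22 and 5.02 FPKM to 4.52, 4.59 and 4.13 FPKM (log2 fold change -0.25, SE 0.065, adjusted p = 0.0464, edgeR), and ADAM17, the most abundant of the list, overlapped between groups (log2 fold change -0.052, adjusted p = 0.69, edgeR). ADAM10 lost its call without any 1 library other than siPAIP1 3 (adjusted p of 0.102 to 0.166, edgeR), and it passed under 3 of the 10 settings that did not leave out a single library, not under DESeq2 (0.0538) or edgeR's exact test (0.0929). IL11RA, the alpha receptor of interleukin 11 and named after its values were seen, was at 0.19 to 0.32 FPKM in Ctrl and 0.24 to 0.34 FPKM in siPAIP1. Its log2 fold change of 0.20 did not pass (SE 0.29, adjusted p = 0.68, edgeR).

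Of 9 other kinases and STATs, 8 were tested and 1 passed, as higher, with a median of 0.28. STAT5B rose from 6.01, 5.93 and 6.06 FPKM to 7.68, 7.72 and 8.54 FPKM (log2 fold change 0.39, SE 0.096, adjusted p = 0.041, edgeR). STAT6, the most abundant of the list, had 17.91, 18.66 and 18.87 FPKM in Ctrl and 20.66, 22.29 and 31.52 FPKM in siPAIP1 and did not pass (log2 fold change 0.41, SE 0.18, adjusted p = 0.19, edgeR). Here too the third siPAIP1 library was the highest of the 6, and without it the log2 fold change of STAT6 was 0.14 (adjusted p = 0.13, edgeR). In that fit STAT2, named after its values were seen, passed as lower beside STAT5B as higher. STAT5B lost its call without any 1 library other than siPAIP1 3 (adjusted p of 0.058 to 0.153, edgeR).

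Among 14 other negative regulators, all tested, 2 passed, both as lower, with a median of -0.040. SOCS1, a relative of SOCS3 that blocks JAK kinases, fell from 5.09, 6.43 and 6.22 FPKM to 4.09, 3.78 and 3.25 FPKM (log2 fold change -0.70, SE 0.13, adjusted p = 0.0151, edgeR). SOCS5 fell from 2.70, 2.53 and 2.73 FPKM to 1.94, 2.21 and 1.41 FPKM (log2 fold change -0.55, SE 0.13, adjusted p = 0.0359, edgeR). SOCS1 lost its call without Ctrl 2, Ctrl 3 or siPAIP1 2 (adjusted p of 0.0601 to 0.0737, edgeR), and SOCS5 without Ctrl 1, 2 or 3 or siPAIP1 1 (0.0692 to 0.126). PTPN1, a phosphatase and the most abundant of the list, overlapped between the groups (log2 fold change -0.013, adjusted p = 0.92, edgeR). Of 9 adaptors of the ERK and PI3K arm, all tested, 0 passed the edgeR test, with a median of -0.11, while 2 had an unadjusted p under 0.05 and DESeq2 called 1, as higher. SHC1, the most abundant, was at a log2 fold change of -0.11 (adjusted p = 0.30, edgeR).

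**Figure D4:**
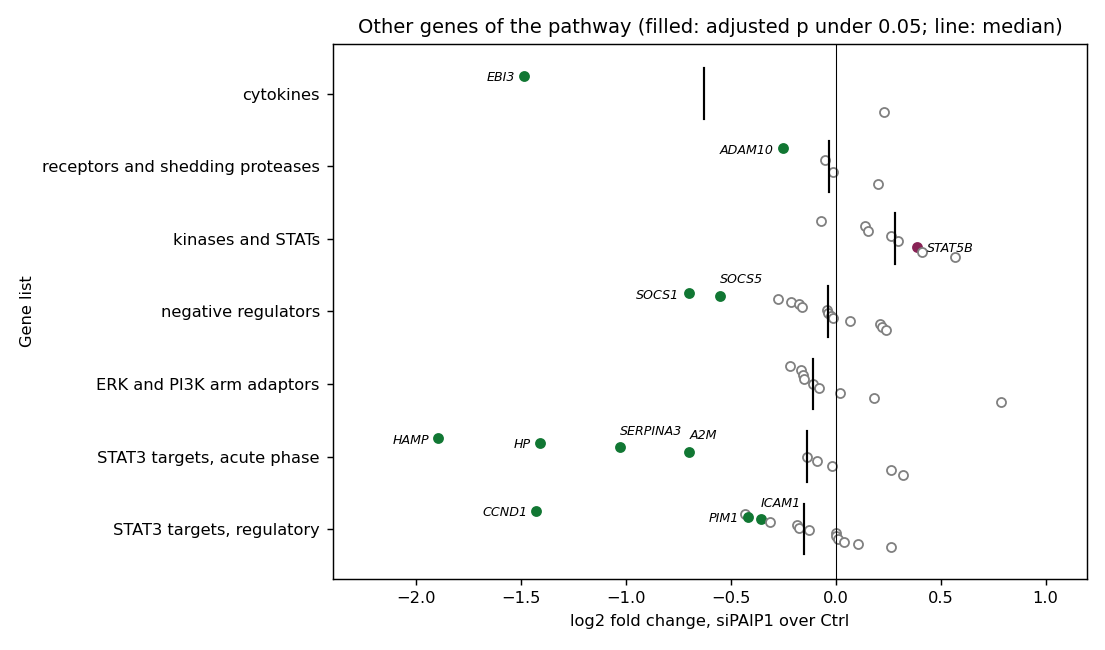
log2 fold change of siPAIP1 over Ctrl for the 60 tested genes of the 7 lists, 1 row of points per list, filled and named where the adjusted p was under 0.05, with the list median as a line. The 12 genes that passed are 1 higher (STAT5B) and 11 lower, the lowest HAMP at -1.90.

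In the acute-phase and regulatory lists of STAT3 targets, the genes that passed with all 6 libraries were lower. In these lists 5 of 9 and 11 of 14 tested genes did not pass. In the acute-phase list 9 of 12 were tested and 4 passed, with a median of -0.14. HAMP, which encodes the iron hormone hepcidin, went from 44.25, 41.91 and 52.01 FPKM to 14.52, 11.99 and 11.31 FPKM (log2 fold change -1.90, SE 0.11, adjusted p = 0.00085, edgeR). A2M, a protease inhibitor, fell from 64.20, 68.47 and 68.29 FPKM to 52.43, 40.40 and 33.91 FPKM (log2 fold change -0.70, SE 0.13, adjusted p = 0.0163, edgeR). The hemoglobin carrier HP (log2 fold change -1.41, adjusted p = 0.0107, edgeR) and the protease inhibitor SERPINA3 (log2 fold change -1.03, adjusted p = 0.0025, edgeR) also passed. HP is uncertain, since it shares sequence with HPR. For SERPINA3 the uncertainty is how reads divide between the 2 gene identifiers of that symbol, and both passed as lower. The value given is that of ENSG00000273259.2, with 1385 to 3737 counts, and ENSG00000196136.16, with 11 to 32 counts, also had a log2 fold change of -1.03 (adjusted p = 0.0338, edgeR). FGG, a chain of fibrinogen and the most abundant of the list, overlapped between groups (202 to 236 FPKM against 159 to 257 FPKM, log2 fold change -0.091, adjusted p = 0.71, edgeR). Both HP (without Ctrl 1 or Ctrl 3, adjusted p of 0.0554 and 0.0518, edgeR) and A2M (without any Ctrl library or siPAIP1 2, 0.0638 to 0.0758) lost the call with 1 library left out. The summed hepatocyte markers given above were lower in the same libraries. ALB (log2 fold change -0.77), TF (-0.72), TTR (-0.52), APOA1 (-0.51) and SERPINA1 (-0.45) passed as lower (adjusted p of 0.014 to 0.0455, edgeR). Each of these was lowest in siPAIP1 3. For ALB the log2 ratio of depth-scaled counts to the Ctrl mean was -1.28 there and -0.57 for siPAIP1 1 and 2. The calls of these markers with 1 library left out are not given. HNF4A and FGB overlapped between groups, and AFP did not pass (adjusted p = 0.13, edgeR). The part of these markers in the values of the acute-phase list was not tested. Without siPAIP1 3, 4 of this list passed as lower and 1, TIMP1, as higher. In that fit 1941 of all tested genes passed as lower and 1848 as higher.

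In the list of regulatory STAT3 targets, all 14 were tested and 3 passed, with a median of -0.15. CCND1, which encodes cyclin D1, fell from 106.02, 108.19 and 118.52 FPKM to 38.27, 38.31 and 48.57 FPKM (log2 fold change -1.43, SE 0.14, adjusted p = 0.0022, edgeR). The kinase gene PIM1 (9.68, 10.87 and 10.55 FPKM against 7.99, 8.07 and 7.62 FPKM) and the adhesion gene ICAM1 (22.04, 22.04 and 22.89 FPKM against 18.84, 19.30 and 15.31 FPKM) changed less, at log2 fold changes of -0.42 and -0.36. Their adjusted p were 0.0161 and 0.0245 (edgeR), and both lost the call with 1 library left out, PIM1 without Ctrl 2, Ctrl 3, siPAIP1 1 or siPAIP1 2 (0.0509 to 0.0732) and ICAM1 without any library other than siPAIP1 3 (0.0523 to 0.0978). Without siPAIP1 3, 6 of the 14 passed as lower, in a fit where 1941 of all tested genes did. BCL2L1, a survival gene and the most abundant of the list, overlapped between groups (log2 fold change 0.010, adjusted p = 0.93, edgeR).

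Promoter letters were searched for the STAT word TTCNNNGAA, which is its own reverse complement, over RefSeq windows of 250 bases before to 50 after each start. Of 35116 windows, 7.66% held it. Among the 13 windows of 8 of the 10 genes it was found in 2, both of alternative LIFR starts, at 165 and 182 bases before the start. The words are in capitals in stretches chr5:38595553-38595579 and chr5:38557632-38557658, both on the minus strand (RefSeq, GRCh38.p14).
LIFR upstream, first start: cattactagTTCCTTGAAccacaatcc
LIFR upstream, second start: ctttggagtTTCATCGAAaggtcttta
The windows listed for SOCS3, STAT3, IL6ST, OSMR, IL6R, JAK1 and IL11 held no such word, which says only that these letters are not in those windows. The SOCS3 windows belong to other starts than the gene start given above (chr17:78360077). The bases just before that start were thus not searched.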

How the data were processed

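RNA-seq of 6 HepG2 libraries was used, 3 per group, described as biological replicates by the study. Per the study's methods, the authors trimmed reads with FASTX-Toolkit and aligned them to GRCh38 with TopHat2. The deposited count table holds raw counts of uniquely mapped reads per gene, and the deposited FPKM table, made by the authors, holds FPKM to 2 decimals. No source used here names the tool that assigned reads to genes, its strand setting or its gene annotation.

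Counts were tested with edgeR 4.0.16 (R 4.3.3) by the quasi-likelihood F test with TMM factors and filterByExpr, group only, after a check on simulated data. That check used set fold changes, and none of its simulated libraries was made to stand apart as siPAIP1 3 did. CPM are TMM-scaled. The depth of 29313211 to 34659866 counts per library leaves SOCS3 with few counts. The smallest exact permutation p for 3 against 3 is 0.1. FPKM compares levels between genes, and relative to CPM it lay 0.955 to 1.06 times the Ctrl mean in the siPAIP1 libraries. Gene positions are from GENCODE 44.

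The 10 genes, the 7 lists and the marker lists were chosen with earlier results of these data known, and support nothing by themselves. Named genes were the 10 members, PAIP1, up to 6 passing genes per list by lowest adjusted p and the most abundant gene of each list. Alternatives were other normalizations, filters and tools (DESeq2 1.42.0, limma 3.58.1 on log2(FPKM + 0.1) and log2(FPKM + 1)), a replicate block, and leaving out libraries. An item of 1 list is not reported here.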

Additional observations from a re-analysis of the deposited data

How the results depend on the processing

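Of 500 alternative values of single genes and ratios, 396 kept direction and side of the threshold, 72 kept direction but no longer passed, 8 newly passed and 24 changed sign. For ratios no threshold was applied, and only the direction was compared. Higher counts of genes passing ranged from 206 to 1848 when each library was left out in turn (882 with all), and lower from 286 to 1941 (963 with all). DEGs ranged from 63 to 190 higher and 91 to 225 lower (173 and 171 with all). Of the 10 genes, 1 to 3 passed as higher and 0 to 4 as lower (3 and 2 with all). Leaving out libraries leaves fewer samples for the fit, and leaving out siPAIP1 3 gave the highest counts of genes passing. Without both Ctrl 2 and siPAIP1 3, 2373 genes passed as higher and 2557 as lower, 4 of the 10 genes among the latter. limma on log2(FPKM + 0.1) called 607 genes lower and 115 DEGs higher, limma on log2(FPKM + 1) called 588 lower, 20 DEGs higher and 30 lower, and 0 of the 10 genes passed as lower in either; without a low-count filter 324 DEGs were higher. The cause of the limma differences was not tested.

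Deviations of same-numbered libraries from their group means correlated positively for number 1 only (r of 0.35, -0.37 and -0.17 for numbers 1, 2 and 3). Deviations from a mean of 3 libraries constrain each other, so this check cannot show whether the numbers pair the samples. A fit with the replicate number as a block called 366 genes higher, 459 lower and 98 DEGs higher, and of the 10 genes 3 higher and 0 lower. Not every library correlated best with its own number.

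Values that changed sign were all small and not called in the fit of all libraries. LIF turned to -0.026 without Ctrl 1, -0.23 without siPAIP1 3 and -0.20 without Ctrl 2 and siPAIP1 3, over a leave-one-out range of -0.23 to 0.20. JAK1 turned to 0.0049 with the CPM filter, 0.025 and 0.023 under limma at the 2 pseudocounts, 0.012 without Ctrl 1, 0.0011 without siPAIP1 1, 0.0064 without siPAIP1 3 and 0.0019 without Ctrl 2 and siPAIP1 3 (range -0.018 to 0.012). PTPN1 turned to 0.013 and 0.012 under limma, 0.0048 without Ctrl 2 and 0.018 without siPAIP1 1 (range -0.044 to 0.018). FGG turned to 0.039 without siPAIP1 3 and 0.048 without Ctrl 2 and siPAIP1 3 (range -0.24 to 0.039). BCL2L1 turned to -0.0046 with RLE factors, without a filter and with DESeq2, -0.0047 without Ctrl 1, -0.0060 without Ctrl 2 and -0.0094 without Ctrl 2 and siPAIP1 3 (range -0.0060 to 0.031). The log2 change of LIFR to OSMR turned to 0.013 without siPAIP1 1 (range -0.11 to 0.013) and that of IL6R to IL6ST to -0.021 without siPAIP1 3 (range -0.021 to 0.32). A CPM filter of 1 in 3 libraries removed SOCS3.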
